A study of Mus musculus with 201 samples.

Results

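The genes described here encode the subunits of voltage-gated sodium and calcium channels, read in single dentate granule neurons of the mouse. They were chosen by symbol: every gene named Scn with a number and the letter a or b, Cacna1, Cacna2d, Cacnb or Cacng. 40 symbols met the rule, against 42790 symbols in the whole-cell tables, and the same 40 are in both tables of nuclei. 10 are sodium channel α subunits, 4 are sodium channel β subunits, and the other 26 are calcium channel α1, α2δ, β and γ subunits.

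RNA was sequenced from single whole cells in 2 groups (47 after saline and 35 after pentylenetetrazole, PTZ) and from single nuclei in 3 groups (48 FOS-, 48 FOS+ and 23 from the home cage, HC). Whole cells came from dissected hippocampi of Prox1-GFP mice, were freed with protease and sorted for the GFP that a Prox1 promoter drives, and followed an injection of saline or of PTZ (50 mg/kg), a blocker of GABA-A receptors that provokes seizures, with the tissue taken 1 h later. Nuclei came from wild-type C57BL/6 mice (female and 8 weeks old, as the methods give for the wild type), were freed mechanically without protease and were stained for marker proteins: nuclei of a mouse that had explored an unfamiliar enclosure with huts and tunnels (NE) for 15 min and then spent 1 h in its cage were sorted as PROX1+FOS+ or PROX1+FOS-, and nuclei of an HC mouse carry the label NEUN+PROX1+ and, by the methods, were picked by scoring both stains in images of the capture sites of a microfluidic chip. Each treatment of whole cells was a pool of 2 mice by the methods and a single mouse by the description of the series, and the FOS+ and FOS- nuclei were of 1 NE mouse. Every group is therefore 1 biological sample, so that no test across animals could be made and no p-value is given. Shares of cells carry exact Clopper-Pearson 95% intervals and summed counts exact Poisson intervals, and both cover counting error only.

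After removal of libraries with few counts, 38 saline cells, 30 PTZ cells, 41 FOS- nuclei, 40 FOS+ nuclei and 23 HC nuclei remained, 172 in all. The median total of a saline cell was 975934 counts and that of a PTZ cell 1090755, against 214421 in FOS- nuclei, 269061 in FOS+ nuclei and 165926 in HC nuclei. Totals of PTZ cells spread more widely, from 67212 to 5129240 counts, than those of saline cells, from 401331 to 2696043. A gene was called detected in a cell where its level passed 1 TPM, a measure of a transcript's share of all transcripts in the cell that is scaled to transcript length and is the scale on which genes are compared here. Prox1, the transcription factor that marks granule neurons, was detected in 38 of 38 saline cells, 30 of 30 PTZ cells, 34 of 41 FOS- nuclei, 33 of 40 FOS+ nuclei and 14 of 23 HC nuclei, and Rbfox3, which encodes NEUN, in 33, 27, 31, 30 and 11 of them. Of 6 listed markers of GABA neurons, Slc32a1, Pvalb, Sst and Vip were at 0 in every saline, PTZ and HC library. At least 1 of these passed TPM 1 in 9 of 41 FOS- and 7 of 40 FOS+ nuclei. The other markers of the list were not absent throughout: Gad1 was detected in 33 of 38 saline and 21 of 30 PTZ cells, and Gad2 in 0 of each. In HC nuclei the summed level of the 6 markers ranged from 0 to 3231 TPM, with a median of 2.94.

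Voltage-gated sodium channels carry the rising phase of the action potential. A large α subunit forms the pore and sets the gating, and β subunits, small membrane proteins with an immunoglobulin-like fold, tune its kinetics and its place in the membrane. Voltage-gated calcium channels turn depolarization into calcium entry, which drives transmitter release, burst firing and signalling to the nucleus, and their α1 pore is joined by an intracellular β subunit and an extracellular α2δ subunit. Most γ proteins of this gene family in brain act mainly on AMPA receptors, as transmembrane AMPA receptor regulatory proteins (TARPs). Dentate granule neurons fire sparsely, and those that have been active can be recognized by the immediate early gene product FOS.

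Several of the sodium α genes lie close together. On chromosome 2 of GRCm38, Scn3a (65457118 to 65567627, minus strand), Scn2a1 (65620771 to 65767447, plus strand), Scn1a (66270778 to 66440840, minus strand), Scn9a (66480080 to 66634962, minus strand) and Scn7a (66673425 to 66784914, minus strand) occupy 1327797 bases. Scn2a1 is the symbol of the files for the gene that GENCODE M21 calls Scn2a. The β genes Scn3b (40269217 to 40291618) and Scn2b (45117782 to 45130070) are on the plus strand of chromosome 9, Cacnb1 (98001508 to 98023034, minus strand) is on chromosome 11 and Cacnb3 (98630840 to 98644529, plus strand) on chromosome 15. The sequence before the start of 3 of these genes is shown because Scn1a and Scn2a1 had the lower level and Cacnb1 the higher level in FOS+ nuclei, as described below. Each line gives the 250 bases before a RefSeq transcript start on GRCm38.p6, 5′ to 3′ on the strand of the gene, with CpG dinucleotides in capitals.
Scn1a, chr2:66440838-66441087, minus strand: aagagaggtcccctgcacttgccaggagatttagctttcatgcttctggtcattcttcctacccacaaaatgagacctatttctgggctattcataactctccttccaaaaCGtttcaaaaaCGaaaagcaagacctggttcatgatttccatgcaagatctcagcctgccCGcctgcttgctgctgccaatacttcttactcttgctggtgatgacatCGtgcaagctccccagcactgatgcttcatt
Scn2a1, chr2:65620519-65620768, plus strand: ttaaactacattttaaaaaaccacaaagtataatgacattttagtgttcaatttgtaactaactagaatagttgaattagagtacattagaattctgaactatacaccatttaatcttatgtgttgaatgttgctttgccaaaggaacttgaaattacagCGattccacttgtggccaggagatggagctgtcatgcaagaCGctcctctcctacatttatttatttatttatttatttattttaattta
Cacnb1, chr11:98022628-98022877, minus strand: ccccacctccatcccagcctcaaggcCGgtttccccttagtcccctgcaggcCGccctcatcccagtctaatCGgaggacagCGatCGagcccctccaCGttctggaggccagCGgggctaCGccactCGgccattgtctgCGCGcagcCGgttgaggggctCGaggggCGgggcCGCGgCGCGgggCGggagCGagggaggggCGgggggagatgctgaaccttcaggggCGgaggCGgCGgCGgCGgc

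The stretch before Scn1a holds 4 CpG and is 46.8% G or C, and that before the outer start of Scn2a1 holds 2 CpG and is 29.6% G or C. The median of all 32851 promoters in the table is 6 CpG. Cacnb1 holds 26 CpG and is 73.2% G or C, and 90.4% of all promoters have fewer. Other starts of the same genes differ: the inner start of Scn2a1 has 9 CpG, and a second start of Cacnb1 has 1. Cacnb3, which was also lower in FOS+ nuclei and is not printed, has a start with 2 CpG and another with 23. The latter is 70.4% G or C, and 86.7% of all promoters have fewer CpG. Which of these starts the nuclei used is not known, and a relation of CpG content to the direction of the difference was not tested. The letters of 3 sites bound by activity-regulated factors were searched on both strands of the 300-base windows, 250 bases before and 50 after the start: TGANTCA (AP-1, the FOS and JUN dimer), TGACGTCA (CRE, the CREB site) and GCGTGGGCG (EGR). The motifs do not overlap in their letters as searched. They are in 7.81%, 1.79% and 0.612% of all promoters. None was found in the 8 windows of the 5 called genes that the table holds (Scn1a, Scn2a1, Cacnb1, Cacnb3 and Cacng3), which says only that these letters are not in these windows. Among all 41 windows of the 30 channel genes listed, AP-1 was found in 1 (Cacng5) and EGR in 1 (Scn7a).

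Granule neurons transcribed a broad but selective set of these genes. 27 of the 40 genes were detected in at least 20% of the cells of at least 1 group. 9 were detected in 1 to 19 of the 172 libraries and never in more than 14.6% of a group: Cacna1f, Cacna1i, Cacna2d2, Cacng6, Cacng7, Scn11a, Scn4a, Scn4b and Scn7a. Cacna1s and Cacng1, which serve the skeletal muscle channel, and Scn10a, a sodium channel of sensory neurons, passed TPM 1 in 0 of 172 libraries. A count of 0 allows a share of libraries above TPM 1 of up to 7.32% in FOS- nuclei, the largest group, and 13.04% in HC nuclei, the smallest, and is no limit on the cells that express a gene below this depth. 23 genes reached 20% of saline cells, 26 of PTZ cells, 25 of FOS- nuclei, 24 of FOS+ nuclei and 18 of HC nuclei. The 3 tables differ in platform, read layout and amplification, so that levels in cells and in nuclei are set side by side here and not compared.

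**Figure D1:**
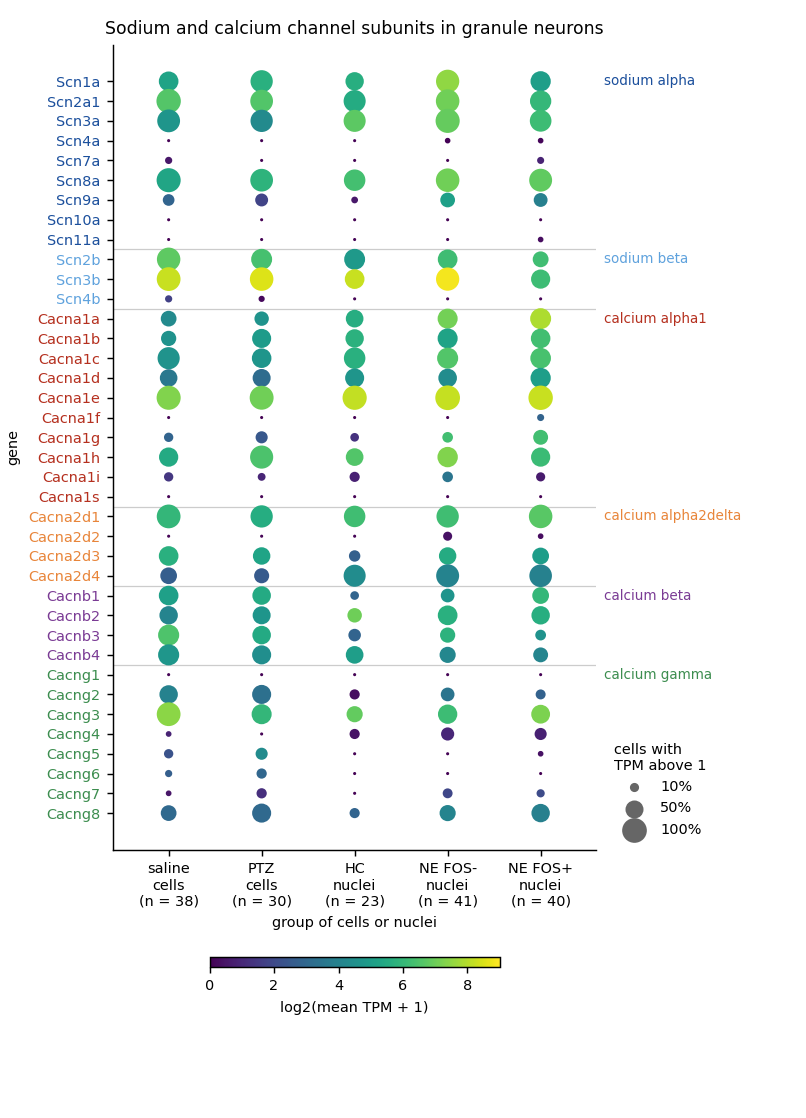
Share of cells or nuclei with TPM above 1 (dot area) and log2(mean TPM + 1) (colour) for channel genes (rows, grouped by family) in the 5 groups (columns, with the number of libraries). Cacna1e, Scn3b and Scn8a are detected in most libraries of each group, and Cacna1s, Cacng1 and Scn10a in none, shown by the smallest dots.

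Among the sodium α subunits, 4 were frequent. Scn2a1, a main pore of excitatory neurons, was detected in 37 of 38 saline cells (97.4%, 86.2 to 99.9), with a lowest, median and highest TPM of 0, 88.3 and 238. Scn8a, the pore concentrated at nodes and at the axon initial segment of mature neurons, was detected in 36 of 38 saline cells (median 32.5 TPM, highest 125), and Scn3a, known best from developing neurons, in 32 of 38 (median 18.6, highest 98.5). Scn1a, which in cortex and hippocampus is best known for its role in parvalbumin interneurons, was detected in 23 of 38 saline cells with a median of 7.93 and a highest value of 269 TPM. Scn9a, known from sensory neurons, was detected in 7 of 38. Mean TPM in saline cells was 96.6 ± 64.3 (SD over cells) for Scn2a1, 38.6 ± 27 for Scn8a, 36.5 ± 54.6 for Scn1a, 24.7 ± 24.2 for Scn3a and 6.34 ± 20.9 for Scn9a. Scn2a1 had the highest mean and Scn9a the lowest, but neighbours in this order, the first and last included, differed by less than the larger SD of the pair.

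The same 4 α genes were frequent in nuclei. HC nuclei had means of 107 ± 107 TPM for Scn3a, 78.7 ± 163 for Scn8a, 48.7 ± 86.5 for Scn1a and 44.7 ± 87.7 for Scn2a1 (n = 23), and the neighbours in this order differed by less than the spread over nuclei. Scn2a1 had the highest TPM of the α genes in 24 of 38 saline cells and 16 of 30 PTZ cells, and Scn3a in 13 of 23 HC nuclei. A saline cell transcribed a median of 4 α genes at once (range 1 to 5), and 37 of 38 had 2 or more. The medians were 4 in PTZ cells, FOS- nuclei and FOS+ nuclei and 3 in HC nuclei. Reads shared between these related genes could move counts from one to another: 6.49% of the 50-base stretches of Scn3a transcripts, 5.76% of Scn2a1 and 4.03% of Scn1a also occur in transcripts of another gene, which include each other, against 0.0374% for Scn8a and 0% for Scn3b.

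Of the β subunits, Scn3b had the highest mean level of all 40 genes in saline cells, PTZ cells, FOS- nuclei and HC nuclei. Its lowest, median and highest TPM were 0, 223 and 1384 in saline cells, and it was detected in 35 of 38. Scn2b was almost as frequent in saline cells, 34 of 38 (median 80.5 TPM), and Scn4b was detected in 2 of 38. Scn2b was detected in 16 of 23 HC nuclei, but its median where detected was 3.44 TPM, only 4 nuclei had 5 counts or more, and 1 nucleus held 77.9% of its counts.

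**Figure D2:**
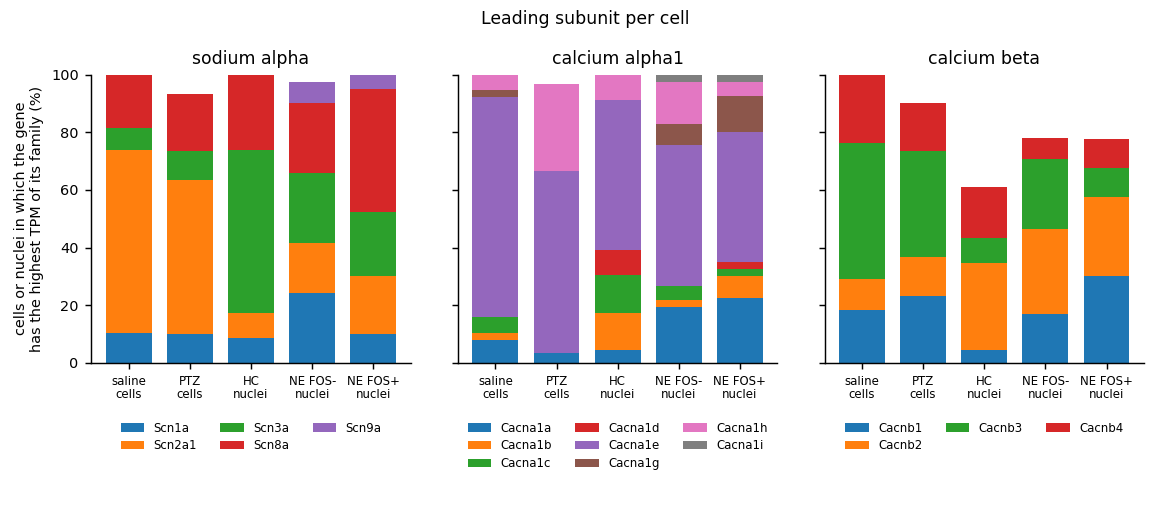
Percent of cells or nuclei (vertical axis) in which each gene has the highest TPM of its family, for sodium α, calcium α1 and calcium β genes in the 5 groups (n = 38, 30, 23, 41 and 40 from left to right). Bars stop short of 100% where a library had no gene of the family above TPM 1. Scn2a1 leads in most saline cells, Scn3a in most HC nuclei and Scn8a in 17 of 40 FOS+ nuclei, Cacna1e is the most frequent leading α1 gene in each group, and Cacnb3 leads in 18 of 38 saline cells and Cacnb1 in 12 of 40 FOS+ nuclei.

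Cacna1e, the R-type calcium pore, was the leading α1 gene throughout. It was detected in 36 of 38 saline cells, 28 of 30 PTZ cells, 22 of 23 HC nuclei, 41 of 41 FOS- nuclei and 39 of 40 FOS+ nuclei, and had the highest TPM of its family in 29, 19, 12, 20 and 18 of them. In saline cells its lowest, median and highest TPM were 0, 152 and 353, and its mean of 155 ± 94.9 stood above the 42.8 ± 67.0 of Cacna1h, a T-type pore that opens near rest. The L-type pores Cacna1c and Cacna1d were detected in 30 of 38 and 18 of 38 saline cells at means of 23.5 ± 31.4 and 11.1 ± 17.8 TPM. The pores of presynaptic release, Cacna1a (P/Q type) and Cacna1b (N type), were detected in 14 of 38 and 13 of 38 saline cells, with medians of 0 and highest values of 220 and 505 TPM. In NE nuclei the mean of Cacna1a was 136 ± 270 TPM in FOS- and 234 ± 410 in FOS+ nuclei, and it was the leading α1 gene in 8 and 9 of them. Cacna1g, another T-type pore, was detected in 4 of 38 saline cells, 6 of 30 PTZ cells, 2 of 23 HC nuclei, 6 of 41 FOS- and 13 of 40 FOS+ nuclei. It came in few nuclei at a high level: its median where detected was 327 TPM in FOS- and 263 TPM in FOS+ nuclei. 1 of 30 PTZ cells, and no other library, had none of the 10 α1 genes above TPM 1.

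Cacna2d1, the α2δ subunit that binds gabapentin, was the most abundant of its family in each group, from 46.6 ± 42.9 TPM in PTZ cells to 100.1 ± 90.7 in FOS+ nuclei, and was detected in 35 of 38 saline cells. Cacna2d3 was detected in 23 of 38 saline cells (median 30.7 TPM) and 4 of 23 HC nuclei. Cacna2d4, known from retina, was detected in 35 of 41 FOS- nuclei, 18 of 23 HC nuclei and 16 of 38 saline cells, at few counts: the median count of a FOS- nucleus with Cacna2d4 was 5.76, and only 19 of 41 had 5 counts or more. The β subunits shared the cells more evenly. In saline cells Cacnb3 had the highest mean (88 ± 95.1 TPM, 27 of 38 cells), before Cacnb1 (32.8 ± 66.4, 23 of 38), Cacnb4 (25.2 ± 29.9, 27 of 38) and Cacnb2 (15.5 ± 24.7, 20 of 38). In HC nuclei the level of Cacnb2, 129 ± 452 TPM, rested on 1 nucleus with 65.6% of its counts. A430018G15Rik overlaps Cacnb4 on the opposite strand, and 15% of the 50-base stretches of Cacnb4 are shared with another gene, so that its level is uncertain. 8 of the 27 frequent genes overlap an exon of another gene on the opposite strand, among them Cacnb1 (80 bases of Gm11629), and the libraries do not mark the strand.

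In saline cells the γ family was led by Cacng3, a TARP. Its lowest, median and highest TPM there were 0, 129 and 768. It was detected in 35 of 38 saline cells and had the highest TPM of the family in 33 of 38. Cacng2 (stargazin) and Cacng8, the TARP that is prominent in hippocampus, followed at 15 ± 28.5 and 7.24 ± 13.9 TPM. In nuclei the level of Cacng3 was uneven: 24 of 41 FOS- nuclei passed TPM 1, but their median was 7.31 TPM while the highest nucleus had 1476. Cacng3 had the highest TPM of the family in 13 of 30 PTZ cells, 8 of 23 HC nuclei, 16 of 41 FOS- and 14 of 40 FOS+ nuclei. Cacng8 had it in 10 of 41 FOS- and 15 of 40 FOS+ nuclei. Cacng4 was detected in 10 of 41 FOS- and 8 of 40 FOS+ nuclei at no more than 8.12 TPM, and in 1 of 38 saline and 0 of 30 PTZ cells. Cacng5 was detected in 4 of 38 saline and 6 of 30 PTZ cells, 1 of 40 FOS+ nuclei, 0 of 41 FOS- nuclei and 0 of 23 HC nuclei.

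The comparison of FOS+ with FOS- nuclei asks which of these genes differ between granule neurons with FOS protein after the NE and neurons of the same mouse without it. In FOS+ nuclei the sodium channel genes Scn3b, Scn1a and Scn2a1 and the calcium β gene Cacnb3 were lower, and the calcium β gene Cacnb1 was higher. A gene was called here by size alone, where its mean TPM was at least 2-fold apart and its share of nuclei at least 15 percentage points apart in the same direction, among genes detected in at least 5 nuclei. Of 29 channel genes that met this filter, 4 were lower and 1 was higher, or 13.8% and 3.45%. Over all 16387 genes 5.41% were lower and 4.6% were higher. The median log2 ratio was -0.16 over the 29 channel genes and -0.25 over all genes, and with TMM scaling of summed counts the ratios of all genes moved up by 0.25, so that the log2 ratios of the called genes are also given relative to the median of all genes. With summed counts, 3 channel genes were lower and 1 was higher, and with TMM scaling of summed counts 3 were lower and 2 were higher.

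**Figure D3:**
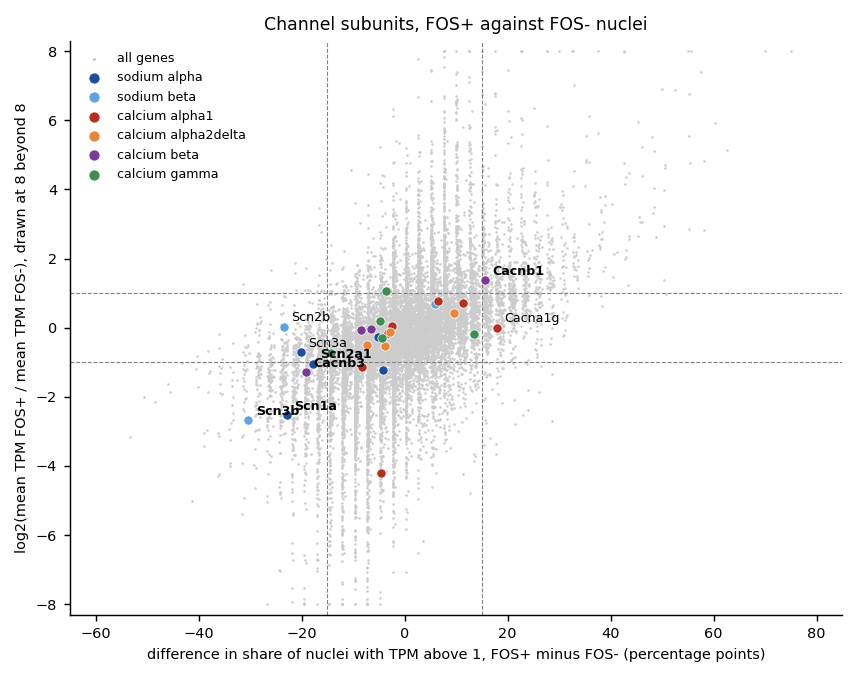
Log2 ratio of mean TPM (vertical axis) against the difference in the share of nuclei with TPM above 1 in percentage points (horizontal axis), FOS+ over or minus FOS- nuclei of 1 mouse. Grey points are all 16387 genes detected in at least 5 nuclei, coloured points the 29 channel genes among them, and dashed lines mark 2-fold and 15 points. The called genes, in bold, are Scn3b, Scn1a, Scn2a1 and Cacnb3 at the lower left and Cacnb1 at the upper right.

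Of the called genes, Scn3b had the largest difference. In FOS- nuclei its lowest, median and highest TPM were 0, 233 and 2751, and in FOS+ nuclei 0, 2.23 and 755, so that the groups overlapped while the typical FOS+ nucleus was near 0. It was detected in 36 of 41 FOS- nuclei (87.8%, 73.8 to 95.9) and 23 of 40 FOS+ nuclei (57.5%, 40.9 to 73). Mean TPM was 454 ± 625 and 71.1 ± 140, or 6.38-fold lower in FOS+ nuclei, a log2 ratio of -2.67 and of -2.43 relative to the median of all genes. Of all genes tested, 6.95% had a lower ratio and 0.458% a lower share difference than Scn3b. Summed over nuclei and scaled to the same total, counts of Scn3b were 794 CPM (780 to 809) in FOS- and 115 CPM (110 to 121) in FOS+ nuclei. These intervals treat amplified reads as independent counts, since the libraries carry no molecular identifiers, and leave out the spread over nuclei.

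Scn1a showed the same direction. Its lowest, median and highest TPM were 0, 37.2 and 1809 in FOS- nuclei and 0, 2.79 and 238 in FOS+ nuclei. It was detected in 36 of 41 FOS- nuclei (87.8%, 73.8 to 95.9) and 26 of 40 FOS+ nuclei (65%, 48.3 to 79.4), and at 5 counts or more in 27 and 13 of them. Mean TPM was 180 ± 330 and 31.2 ± 62.4, 5.79-fold lower in FOS+ nuclei, with a log2 ratio of -2.53 and of -2.29 relative to the median. Without the 9 FOS- and 7 FOS+ nuclei that held a GABA neuron marker, the log2 ratio was -2.29 and the share difference -14.7 points, just short of the 15 points of the call. Whether those nuclei account for part of the difference was not tested further.

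The nuclei had been amplified under 4 conditions, with 1 or 10 µM of template switching oligo (TSO) and spike-in RNA (ERCC) diluted 1:200 or 1:2000. The mean TPM of Scn3b and of Scn1a was lower in FOS+ nuclei in 4 of 4 conditions. Asking also for the same direction of the mean in all 4 conditions, whatever the share within each, left 2 channel genes lower and 1 higher. These are 6.90% and 3.45%, against 3.01% and 2.54% of all genes. Mean TPM of Scn3b in FOS+ and FOS- nuclei was 17.4 and 482 at 1 µM and 1:200, 49.7 and 533 at 1 µM and 1:2000, 162 and 240 at 10 µM and 1:200, and 45 and 551 at 10 µM and 1:2000. The gap was smallest at 10 µM and 1:200, where the nuclei were also shallowest, with median totals of 152332 counts in FOS+ and 79166 in FOS- nuclei. Mean TPM of Scn1a in FOS+ and FOS- nuclei was 13.9 and 340 at 1 µM and 1:200, 52.3 and 140 at 1 µM and 1:2000, 13.6 and 104 at 10 µM and 1:200, and 49.1 and 141 at 10 µM and 1:2000. The share of nuclei with Scn1a was not lower at 10 µM and 1:200, with 10 of 11 FOS+ and 9 of 10 FOS- nuclei.

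Scn2a1, the neighbour of Scn1a on chromosome 2, passed the call narrowly. Its lowest, median and highest TPM were 0, 65.9 and 680 in FOS- nuclei and 0, 39 and 229 in FOS+ nuclei. It was detected in 37 of 41 and 29 of 40, and its mean was 131 ± 169 and 63.5 ± 72 TPM, 2.06-fold lower in FOS+ nuclei (log2 ratio -1.04, and -0.79 relative to the median). The direction turned at 10 µM and 1:200 (log2 0.17), and the call was lost with summed counts, with TMM or median-of-ratios scaling, with thinned counts, without the nuclei that held a GABA marker, and when any 1 of 7 nuclei was left out. The other sodium α genes were not called. Scn3a was detected in 39 of 41 FOS- and 30 of 40 FOS+ nuclei, with means of 116.9 ± 169 and 71.1 ± 108 TPM (log2 ratio -0.72). With counts summed over nuclei and TMM scaling its log2 ratio was 0.13. Scn8a had nearly equal means, 132 ± 167 and 110 ± 90.1 TPM (log2 ratio -0.27), and medians of 94.4 and 95.7. Scn9a was detected in 13 of 41 and 11 of 40 nuclei (log2 ratio -1.22). The leading α gene was Scn8a in 17 of 40 FOS+ and 10 of 41 FOS- nuclei and Scn1a in 4 and 10 of them.

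Summed over the α genes, the median nucleus had 261 TPM in FOS+ and 470 TPM in FOS-, and summed over the β genes 119 and 351 TPM. The mean sum of the α genes was lower in FOS+ nuclei in 4 of 4 conditions, with log2 ratios from -1.88 to -0.26, and that of the β genes in 3 of 4, with 0.08 at 10 µM and 1:200. Nuclei with no β gene above TPM 1 were 7 of 40 FOS+ and 0 of 41 FOS-. Scn2b, which was not called, was detected in 25 of 41 FOS- and 15 of 40 FOS+ nuclei, a difference of -23.5 points, and its means were 73.4 ± 139 and 74.7 ± 146 TPM, and its median where detected was 79.5 TPM in FOS- and 180 TPM in FOS+ nuclei. By the share of nuclei alone, 6 of 29 channel genes were at least 15 points lower in FOS+ nuclei (20.7%) and 2 were higher (6.90%), against 8.18% and 8.24% of all genes.

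**Figure D4:**
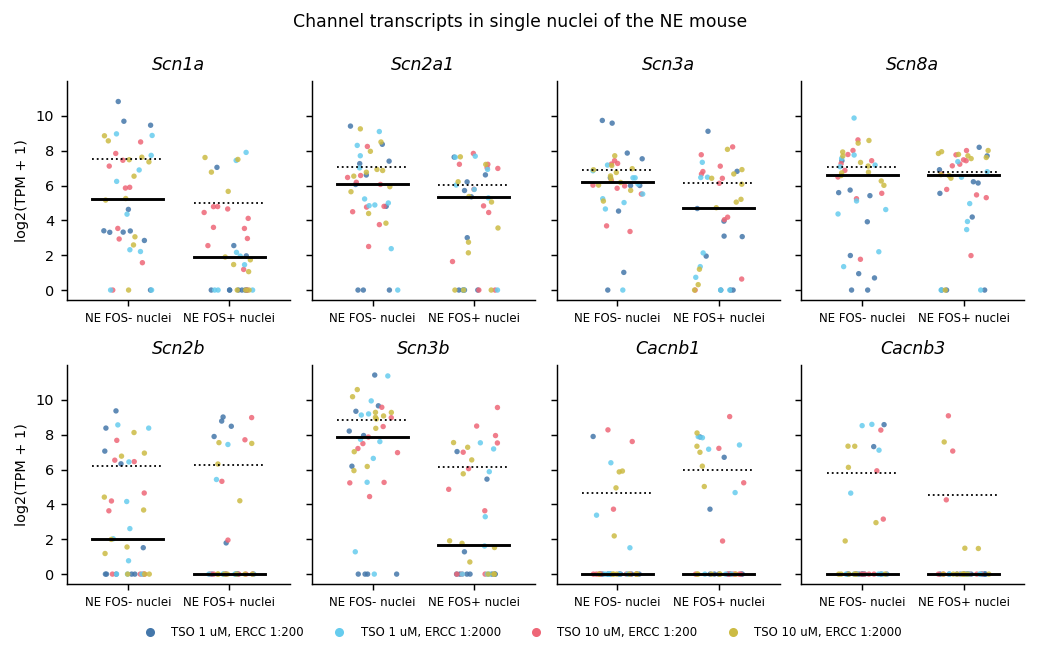
Level of 8 channel genes in each nucleus as log2(TPM + 1) (vertical axis) in FOS- (n = 41) and FOS+ (n = 40) nuclei of the NE mouse, coloured by amplification condition. Solid lines are medians, and dotted lines the log2 of mean TPM plus 1. Scn3b has a median of 233 TPM in FOS- and 2.23 TPM in FOS+ nuclei, Scn1a 37.2 and 2.79, and Scn8a 94.4 and 95.7.

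The intracellular calcium β subunits, which bind a common site of the α1 pore, were called in both directions. Cacnb1 was detected in 11 of 41 FOS- nuclei (26.8%, 14.2 to 42.9) and 17 of 40 FOS+ nuclei (42.5%, 27 to 59.1). Its median was 0 in both groups, its highest TPM was 310 and 526, and its mean was 24.4 ± 67.2 in FOS- and 63.2 ± 112 in FOS+ nuclei, 2.59-fold higher in FOS+ (log2 ratio 1.38, and 1.62 relative to the median). It was higher in 4 of 4 conditions, but its share difference of 15.7 points lay close to the limit, and leaving out any 1 of 47 nuclei ended the call. Cacnb3 was detected in 14 of 41 FOS- nuclei (34.1%, 20.1 to 50.6) and 6 of 40 FOS+ nuclei (15%, 5.71 to 29.8), with medians of 0 and highest values of 386 and 543 TPM. Its mean was 54.4 ± 113 and 22.2 ± 91.9 TPM, 2.45-fold lower in FOS+ (log2 ratio -1.29, and -1.05 relative to the median). 1 FOS+ nucleus held 61.0% of the Cacnb3 counts of its group, and leaving out single nuclei gave log2 ratios from -2.62 to -1.05. The direction held in 3 of 4 conditions and turned at 10 µM and 1:200 (log2 0.75). Cacnb2 (25 of 41 and 21 of 40 nuclei) and Cacnb4 (16 of 41 and 13 of 40) had log2 ratios of -0.06 and -0.04. The most frequent leading β gene was Cacnb2 in FOS- nuclei (12 of 41) and Cacnb1 in FOS+ nuclei (12 of 40).

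No α1, α2δ or γ gene was called between FOS+ and FOS- nuclei. Cacna1e had means of 304 ± 319 and 297 ± 259 TPM in FOS+ and FOS- nuclei (log2 ratio 0.04). Cacna1a, Cacna1b and Cacna1d had higher means in FOS+ nuclei, with log2 ratios of 0.78, 1.05 and 0.71, but their shares differed by 6.59, -3.41 and 11.3 points. Without the nuclei that held a GABA marker, Cacna1a passed the call. Cacna1h had a lower mean in FOS+ nuclei (70.0 ± 103 against 155 ± 294 TPM, log2 ratio -1.15) at shares of 23 of 40 and 27 of 41. Cacna1g had equal means, 76.8 ± 170 and 77 ± 311 TPM, while its share was 17.9 points higher in FOS+ nuclei, and 1 FOS- nucleus held 57.3% of the counts of its group. Cacna1c and the rarely detected Cacna1i had log2 ratios of -0.16 and -4.20, the latter on 6 FOS- and 4 FOS+ nuclei. Cacna2d1, Cacna2d3 and Cacna2d4 had log2 ratios of 0.43, -0.52 and -0.12. Cacng3 had a higher mean in FOS+ nuclei in 4 of 4 conditions (149 ± 357 against 71.8 ± 242 TPM, log2 ratio 1.06), with nearly equal shares of 22 of 40 and 24 of 41 and medians of 1.85 and 2.49 TPM. 1 FOS+ nucleus held 49.8% of its counts in that group. Cacng2 (log2 ratio -0.74, -14.3 points) and Cacng8 (-0.19, 13.5 points) lay inside the limits, as did Cacng4 (-0.29, -4.39 points). Of the rare genes that met the filter, Cacna2d2 and Cacng7 had log2 ratios of -0.49 and 0.20 with no stable direction, since leaving out 1 nucleus gave -6.00 to 0.54 and -1.10 to 2.19. Leaving out 1 nucleus changed the sign of the log2 ratio of 12 of the 24 channel genes that were not called, among them Cacna1c, Cacna1e, Cacna1g, Cacna2d3, Cacna2d4, Cacnb2, Cacnb4, Cacng4 and Cacng8.

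As a check of the sort, 6 of 6 immediate early genes were higher in FOS+ nuclei, among them Fos (12 of 40 against 3 of 41 nuclei) and Arc (31 of 40 against 1 of 41). These nuclei were sorted on FOS protein, so this is not independent of the groups. Of the granule neuron markers C1ql2 was lower in FOS+ nuclei (18 of 40 against 25 of 41). The others of that list were not called, with log2 ratios from -0.76 (Calb1) to 1.24 (Dsp) and 0.13 for Prox1. Of the GABA neuron markers Gad2 was higher (14 of 40 against 7 of 41, at means of 4.01 and 0.717 TPM). The summed level of the 6 GABA neuron markers ranged from 0 to 1360 TPM in FOS+ and from 0 to 5822 TPM in FOS- nuclei, with medians of 26.3 and 1.22. Gad1 was detected in 19 of 40 FOS+ and 15 of 41 FOS- nuclei (log2 ratio 1.39), and Pvalb was at 0 in both groups. The means of the other markers of this list were lower in FOS+ nuclei, and none of them was called. Slc32a1 was detected in 0 of 40 FOS+ and 2 of 41 FOS- nuclei. Sst (4 of 40 and 5 of 41) and Vip (3 of 40 and 3 of 41) had log2 ratios of -1.01 and -7.08. The part of these markers in the channel results was tested only by leaving out the nuclei that held Slc32a1, Pvalb, Sst or Vip.

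Genes whose proteins bind or regulate these channels give a wider view. None of 13 partners of sodium channels was called in FOS+ nuclei. The most abundant of them, Ank3, the anchor of sodium channels at the axon initial segment, and Ank2 were detected in 40 of 40 and 39 of 40 FOS+ nuclei, with log2 ratios of 0.14 and -0.07. Of 12 measured partners of calcium channels, 3 were higher and 1 was lower, or 25% and 8.33% against 4.6% and 5.41% of all genes. Rims2, a presynaptic scaffold (log2 ratio 1.501), Cabp1, a calcium sensor of the calmodulin family (1.73), and Cbarp, which binds calcium β subunits (1.03), were higher, and Calm3, a calmodulin gene, was lower (-1.006). The mean of Rims2 and that of Cabp1 was higher in 3 of 4 conditions and that of Calm3 lower in 3 of 4, whereas Cbarp, whose fold lay at the limit of the call, was higher in 2 conditions and lower in 2. Cabp1 was detected in 13 of 40 FOS+ and 2 of 41 FOS- nuclei. Calm2, another calmodulin gene and the one of this list with the highest mean over the 5 groups, had a log2 ratio of 0.34. Among 14 measured genes of calcium release and clearance, Atp2b3, a calcium pump of the plasma membrane, was lower (16 of 40 against 27 of 41 nuclei, log2 ratio -1.56, lower in 3 of 4 conditions), as 1 of 14 (7.14%), while Calb1, the calcium buffer of granule neurons, and Atp2b1 were detected in each nucleus of both groups (log2 ratios -0.76 and 0.27).

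The comparison of PTZ with saline cells asks whether the same genes differ 1 h after a seizure-inducing drug. PTZ cells had more Cacna1h and less Cacng3 and Cacnb3. Of 29 channel genes tested 1 was higher (3.45%) and 2 were lower (6.90%), against 3.8% and 3.51% of all 13748 genes tested. The median log2 ratio was -0.21 over the channel genes and -0.08 over all genes. Each treatment was 1 pool or mouse, so that animals and drug cannot be told apart. The library names of PTZ and saline cells also end in different suffixes, so that the set of libraries and the drug cannot be told apart either. None of the 3 calls held when counts were summed over cells.

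Cacna1h, the T-type pore, had a lowest, median and highest TPM of 0, 5.67 and 325 in saline cells and 0, 46.4 and 364 in PTZ cells. It was detected in 22 of 38 saline cells (57.9%, 40.8 to 73.7) and 26 of 30 PTZ cells (86.7%, 69.3 to 96.2), a difference above that of 99.4% of the genes tested. Mean TPM was 42.8 ± 67.0 and 86.0 ± 90.3, or 2.01-fold higher in PTZ cells (log2 ratio 1.005). The fold lay at the limit of the call, which was lost when any 1 of 37 cells was left out, and was 0.91 on the log2 scale for summed counts. Cacna1h was the leading α1 gene in 9 of 30 PTZ cells and 2 of 38 saline cells. Exons of Cacna1h overlap 158 bases of Tpsg1 on the opposite strand.

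Cacng3 had a lowest, median and highest TPM of 0, 129 and 768 in saline cells and 0, 57.7 and 214 in PTZ cells. It was detected in 35 of 38 (92.1%, 78.6 to 98.3) and 19 of 30 (63.3%, 43.9 to 80.1). Mean TPM was 173 ± 163 and 61.1 ± 67.9, 2.83-fold lower in PTZ cells (log2 ratio -1.502), and -0.95 for summed counts. No left-out cell ended the call, but it held in 7 of 11 settings and was lost with summed counts and with counts thinned to equal depth. Cacnb3 had medians of 71.2 and 9.18 TPM and highest values of 299 and 138 in saline and PTZ cells, and was detected in 27 of 38 and 16 of 30. Its mean of 42.7 ± 51.8 TPM in PTZ cells was 2.06-fold lower than the 88 ± 95.1 of saline cells (log2 ratio -1.04), and leaving out any 1 of 22 cells ended the call. Cacnb3 was the only channel gene called in both comparisons. The share of all genes called in both is not given here, so nothing is drawn from this overlap. Its PTZ call held in 6 of 11 settings.

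No sodium channel gene was called between PTZ and saline cells. Scn2b was detected in 34 of 38 and 21 of 30 cells (log2 ratio -0.41). Scn3b had means of 302 ± 315 in saline and 365 ± 399 TPM in PTZ cells (log2 ratio 0.27) at 35 of 38 and 27 of 30 cells. Scn1a was detected in 23 of 38 and 24 of 30 cells, with a log2 ratio of 0.50 for mean TPM and -0.50 for summed counts. Scn2a1, Scn3a and Scn8a had log2 ratios of -0.04, -0.42 and 0.52, the last of which also turned with summed counts (-0.43), and Scn9a, in 7 cells of each group, -1.32.

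**Figure D5:**
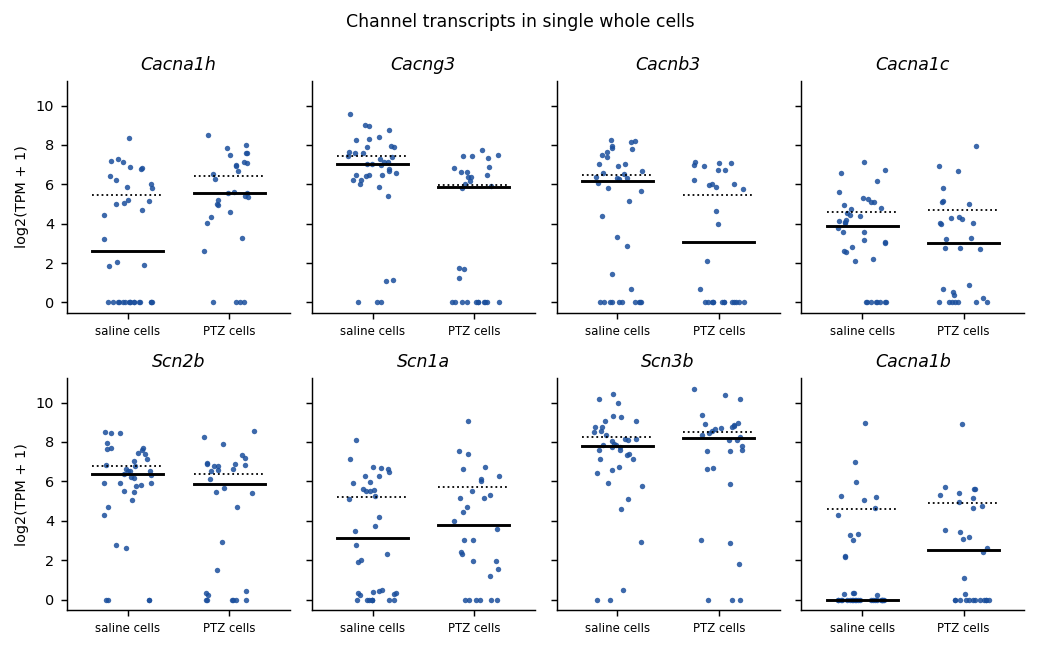
Level of 8 channel genes in each whole cell as log2(TPM + 1) (vertical axis) in saline (n = 38) and PTZ (n = 30) cells. Solid lines are medians, and dotted lines the log2 of mean TPM plus 1. Cells without Cacng3, Cacnb3 or Cacna1c are more frequent among PTZ cells and cells without Cacna1h among saline cells.

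The remaining calcium channel genes were not called between PTZ and saline cells. Cacna1b was detected in 17 of 30 PTZ and 13 of 38 saline cells, a difference of 22.5 points, at a log2 ratio of 0.34 that ranged from -0.77 to 1.55 when 1 cell was left out. Cacna1c went the other way in share, 18 of 30 against 30 of 38, at a log2 ratio of 0.10. Cacna1e, Cacna1d and Cacna1a had log2 ratios of -0.24, -0.49 and 0.37, and Cacna1g, in 6 of 30 and 4 of 38 cells, -0.51. Leaving out 1 cell turned the direction of Cacna1a (-0.33 to 0.89) and of Cacna1g (-2.54 to 0.90). Cacna2d1, Cacna2d3 and Cacna2d4 had log2 ratios of -0.39, -0.48 and -0.21, and 1 saline cell held 73.1% of the Cacna2d4 counts of its group (-0.74 to 1.599 when 1 cell was left out). Cacnb1, Cacnb2 and Cacnb4 had log2 ratios of 0.39, 0.67 and -0.32. Cacng2 had -0.77 at 17 of 30 and 20 of 38 cells, Cacng8 0.01 at 17 of 30 and 14 of 38 cells, and Cacng5 2.26 on 6 PTZ and 4 saline cells, with 53.2% of its PTZ counts in 1 cell. Of the rare genes that met the filter, Cacna1i, Cacng6 and Cacng7 had log2 ratios of -0.92, 0.33 and 1.59, which ranged from -5.48 to 0.19, from -2.22 to 1.70 and from 0.89 to 6.03 when 1 cell was left out. Of the 26 channel genes that were not called, 10 changed sign in this way, with Cacna1c, Cacng8, Scn1a and Scn2a1 among them. By share alone, 4 channel genes were at least 15 points higher in PTZ cells (13.8%) and 5 were lower (17.2%), against 7.67% and 9.94% of all genes.

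Several values moved beside these results. Immediate early genes were present in saline cells: Fos was detected in 30 of 38 saline and 26 of 30 PTZ cells, Arc in 17 and 14, and Egr1 was called lower in PTZ cells (18 of 30 against 30 of 38). The median of the summed level of the 6 early genes was 1589 TPM in saline and 227 TPM in PTZ cells. The number of genes per cell was 6272 ± 1013 in saline and 6192 ± 2202 in PTZ cells, with 12220 in the highest PTZ cell. Without the 3 PTZ cells with the most genes (above the mean plus 2 SD of the table), Cacna1h, Cacng3 and Cacnb3 kept their calls, with log2 ratios of 1.10, -1.64 and -1.11. Of the markers of other cells only Fibcd1, of CA1 pyramidal neurons, was called, higher in PTZ cells (12 of 30 against 5 of 38). Cpne4, another CA pyramidal marker, went the other way in share (16 of 30 against 30 of 38, log2 ratio -0.23) and was not called. Iyd was detected in 2 cells of each group and Spink8 in 1 of each. The summed level of the 4 CA pyramidal markers ranged from 0 to 766 TPM in PTZ and from 0 to 331 TPM in saline cells, with medians of 39.2 and 44.5. The part of these values in the channel results was not tested.

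Partner genes of the calcium channels also differed between PTZ and saline cells. Rimbp2, which links release sites to calcium channels, was detected in 8 of 30 PTZ and 23 of 38 saline cells (log2 ratio -1.57), and Akap5, a scaffold that ties kinases to L-type channels, in 11 of 30 and 24 of 38 (log2 ratio -2.02). Both were lower by the call, as 2 of 12 measured genes of the list (16.7%), against 3.51% of all genes. None of 12 measured sodium channel partners was called, with Ank3 and Ank2 at log2 ratios of -0.04 and -0.12. Of 14 measured genes of calcium release and clearance, Calb2, the calcium buffer calretinin, was higher (7 of 30 against 1 of 38 cells, log2 ratio 3.15), as 1 of 14 (7.14%) against 3.8% of all genes, while Calb1 and Atp2b1 had log2 ratios of -0.34 and -0.33.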

How the data were processed

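The authors trimmed reads with Solexa-QA++ and quantified them with RSEM on Bowtie 1.0.0 against mm10 with Ensembl genes. Whole cells and HC nuclei were read paired-end (100 bases) and NE nuclei single-end (50 bases). HC nuclei were captured and amplified on the Fluidigm C1, and whole cells and NE nuclei were amplified with Smart-seq2. The authors deposited estimated counts (RSEM expected counts, not whole numbers) and TPM values (scaled to transcript length and to the total of the library), one table of each for whole cells, NE nuclei and HC nuclei. TPM of the deposited tables was used for levels and expected counts for depth, summed counts and scaling. The libraries carry no unique molecular identifiers.

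Libraries with a total above 50000 expected counts and a number of genes above the mean minus 2 SD of their table were kept, and all 23 HC nuclei. Each library removed failed the limit on counts, so that the limit on genes removed no further library. The lowest number of genes in a kept FOS+ nucleus was 1373, and 22 of the 23 HC nuclei met both limits. No test across cells was made, since cells of 1 mouse or pool are not replicates: a gene was called where mean TPM was at least 2-fold and the share of cells above TPM 1 at least 15 percentage points apart in the same direction, among genes with TPM above 1 in at least 5 cells of the groups compared. Channel genes in at least 20% of the cells of a group or past the call were named with values, others by counts and ranges, with the 2 most abundant and the called genes of each partner list, and some of these genes are not reported here. The alternatives covered the cells kept, scaling of summed counts with edgeR 4.0.16 (TMM) and DESeq2 1.42.0 (median of ratios), log2 values, detection limits, thinning to 50000 counts, the limits of the call, amplification conditions and leaving out each cell. Leaving out nuclei with a GABA neuron marker and cells with many genes was chosen after seeing the data. The channel genes and gene lists were chosen with earlier results of these data known. Gene positions and shared 50-base stretches come from GENCODE M21 (GRCm38) and promoters from RefSeq (GRCm38.p6), where 30 of the 40 genes were matched. Scripts ran on Python 3.11.15, with pandas 2.3.3, and R 4.3.3, and were tested on simulated data.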

Additional observations from a re-analysis of the deposited data

How the results depend on the processing

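No paired analysis was possible because replicate numbers name single cells or nuclei, which are not matched across groups, and each group is 1 biological sample. The numbers of channel genes in at least 20% of cells stayed within 1.5 times under the alternatives run. In FOS+ nuclei 2 channel genes were called higher, instead of 1, with TMM scaling and with log2(TPM + 1) or log2(TPM + 0.1) (Cacna1g and Cacnb1), and 2 without the nuclei that held a GABA neuron marker (Cacna1a and Cacnb1), when 2 instead of 4 were called lower (Cacnb3 and Scn3b). Leaving out each nucleus in turn gave 0 to 1 higher and 3 to 5 lower. Within 10 µM TSO and ERCC 1:200 the log2 ratios of Cacnb3 (0.75) and Scn2a1 (0.17) reversed. The share of all genes with the higher level in FOS+ nuclei was 40.9%, 42.9% with summed counts, and 51.5% with TMM scaling of summed counts. Of the 29 channel genes it was 10, 13 and 15 genes. Over the 11 settings of all nuclei, Scn3b, Cacnb3 and Cacnb1 were called in 11, Scn1a in 10 and Scn2a1 in 6. In PTZ cells 0 channel genes were called higher and 0 lower with summed counts (CPM), TMM or median-of-ratios scaling. 4 were called lower with log2(TPM + 1) and log2(TPM + 0.1). 2 were called higher with log2(TPM + 0.1) and with thinned counts (Cacna1b and Cacna1h), when 0 were lower with thinned counts, and 2 were higher at a share difference of 10 points (Cacna1h and Cacng7). Leaving out each cell in turn gave 0 to 2 higher, and at least 1 lower. Of the log2 ratios of single called genes, 31 values stayed within the range from leaving out each cell, 49 moved beyond it in the same direction and 2 reversed. The cause of these differences was not tested. Depth was lowest in HC nuclei and in nuclei at 10 µM TSO and ERCC 1:200, where low genes such as Cacna2d4 and Cacng4 rested on few counts.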
